A study of Mus musculus with 8 samples.

Results

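The S100 proteins are small calcium-binding proteins, and 9 of their genes that are known from the epidermis are described here: S100a8, S100a9, S100a3, S100a4, S100a6, S100a10, S100a11, S100a14 and S100a16. They were taken by gene symbol from the array's annotation, and all 9 were measured, among 17097 genes in all. Of these, 8 had 1 probe set each, and S100a16 had 2, of which the brighter represents the gene. The rule names the genes and sets no threshold on their values, but it was written with earlier results of these data known.

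Sorted basal keratinocytes from the interfollicular epidermis of the back were profiled on Affymetrix arrays, each array from its own CD1 mouse, an outbred stock. Control mice (n = 3) were untreated, expanded mice (n = 3) had their skin stretched by a force and sampled at day 4, and TPA mice (n = 2) were treated with 12-O-tetradecanoylphorbol-13-acetate, a phorbol ester and activator of protein kinase C. The labels give no age, sex, dose or duration for the TPA treatment. For each array 300 cells were sorted for the integrin ITGA6 and against CD34, and their cDNA was amplified before labelling, so each array rests on few cells of 1 animal.

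S100 proteins carry a pair of EF-hand loops that bind calcium and mostly work as dimers that change shape when calcium rises and then grip a partner protein. S100a8 and S100a9 pair with each other as calprotectin, which withholds metal ions from microbes and acts outside the cell as a danger signal through receptors such as TLR4 and RAGE. Neutrophils hold much of it, and keratinocytes make it when skin is wounded, inflamed or hyperproliferative. Other members stay largely inside the cell: S100a10 and S100a11 bind annexins at membranes, S100a4 binds non-muscle myosin, and S100a6 binds the protein Cacybp. S100a3 is known from the hair cuticle.

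All 9 genes lie on mouse chromosome 3, in the order S100a14, S100a16, S100a3, S100a4, S100a6, S100a8, S100a9, S100a11 and S100a10, at the borders of the epidermal differentiation complex that also holds genes of the cornified envelope. Promoter windows from RefSeq (GRCm38.p6, 250 bases before to 50 after a gene's start) were found for 7 of the 9, with 11 windows in all. S100a8 and S100a9 are shown because they are neighbours with the widest differences in signal. S100a11 is shown because it alone held the AP-1 letters and had the narrowest differences from control. Capitals mark matches to TGACTCA, the classic phorbol ester response element bound by AP-1, or to TATAAA, on either strand. The windows are S100a8 at chr3:90668821-90669100 (plus strand), S100a9 at chr3:90695692-90695971 (minus strand) and S100a11 at chr3:93520246-93520525 (plus strand), each printed to 30 bases after the start.
S100a8: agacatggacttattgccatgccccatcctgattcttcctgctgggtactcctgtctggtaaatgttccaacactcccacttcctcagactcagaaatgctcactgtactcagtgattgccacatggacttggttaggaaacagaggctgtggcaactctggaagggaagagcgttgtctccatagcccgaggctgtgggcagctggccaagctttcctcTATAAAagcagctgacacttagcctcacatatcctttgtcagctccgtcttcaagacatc
S100a9: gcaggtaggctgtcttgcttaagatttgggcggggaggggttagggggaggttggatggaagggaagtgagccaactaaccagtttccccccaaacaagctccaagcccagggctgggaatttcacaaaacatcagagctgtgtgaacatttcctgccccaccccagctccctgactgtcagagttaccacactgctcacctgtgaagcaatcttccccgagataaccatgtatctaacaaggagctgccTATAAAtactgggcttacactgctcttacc
S100a11: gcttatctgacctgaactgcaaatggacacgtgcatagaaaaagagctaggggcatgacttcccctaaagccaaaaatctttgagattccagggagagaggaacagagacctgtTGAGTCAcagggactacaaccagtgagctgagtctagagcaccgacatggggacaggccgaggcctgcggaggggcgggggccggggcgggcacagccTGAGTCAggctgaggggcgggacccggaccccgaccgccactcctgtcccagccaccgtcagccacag
TATAAA lay 30 to 25 bases before the start in S100a8 and over the first 6 bases of the RefSeq start in S100a9. Of all 32851 windows 13.6% held it, and 4 of the 11 member windows did. TGACTCA was in 5.2% of all windows and in 1 of the 11 member windows, that of S100a11, where it occurred 136 to 130 and 38 to 32 bases before the start. TTCNNNGAA, a STAT motif, was in 8.3% of all windows and in 0 of the 11. Only these letters in these windows were searched.

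Signals from RMA, on the log2 scale, are given per array, and differences between groups as log2 differences ± SE from a limma fit over all 8 arrays, with p-values adjusted by Benjamini-Hochberg over all 17097 genes. Array medians lay between 7.08 and 7.14. Within a group, any pair of arrays had r = 0.990 or more across genes, and no array was a copy of another. As a stand-in for background, the 95th percentile of 77 receptor genes of smell and related senses was taken on each array, and it lay between 6.40 and 6.56. Itga6, Krt5 and Krt14 were above this limit on every array and Cd34 was under it on every array. Odc1, Krt6a and Krt16 are known for their induction by phorbol ester or wounding, but were lowest in the arrays labelled TPA. Odc1 was at 11.34 ± 0.02 in control, 9.84 ± 0.14 in expanded and 8.99 ± 0.09 in TPA arrays (SD, n = 3, 3 and 2). Krt6a (-0.69 ± 0.09) and Krt16 (-0.89 ± 0.07) were likewise lower in the arrays labelled TPA than in control. S100a8 and S100a9, which phorbol ester is also known to induce, were lowest there too. Whether the control and TPA labels were exchanged was not tested. An exchange would turn the sign of every difference between TPA and control and make every difference of expanded from control one from TPA. The directions that follow are those of the labels as given, so "control" and "TPA" stand for the arrays labelled control and TPA.

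The control arrays held the highest mean of each of the 9 S100 genes, as they did for 39.3% of all genes. Between TPA and control 6 were lower (S100a8, S100a9, S100a4, S100a6, S100a14 and S100a16), 0 were higher and 3 did not pass the test (limma, 0 higher and 6 lower at an unadjusted p under 0.05), while 10.6% of all genes were called lower and 10.2% higher. Between expanded and control 3 were lower (S100a4, S100a6 and S100a10) and 0 were higher (limma, 0 higher and 6 lower at an unadjusted p under 0.05), while 5.78% of all genes were called lower and 5.69% higher. Between expanded and TPA 2 were higher in the expanded arrays (S100a8 and S100a9) and 0 were lower (limma, 5 higher and 1 lower at an unadjusted p under 0.05), where 3.16% of all genes were called higher and 2.81% lower. The median difference over the 9 genes was -0.40 for TPA against control (-0.03 over all genes), -0.51 for expanded against control (0.01 over all genes) and 0.20 for expanded against TPA (0.03 over all genes). The comparisons share arrays, so they are not independent of each other. In these bulk samples fewer cells of a type and less RNA per cell cannot be told apart.

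**Figure D1:**
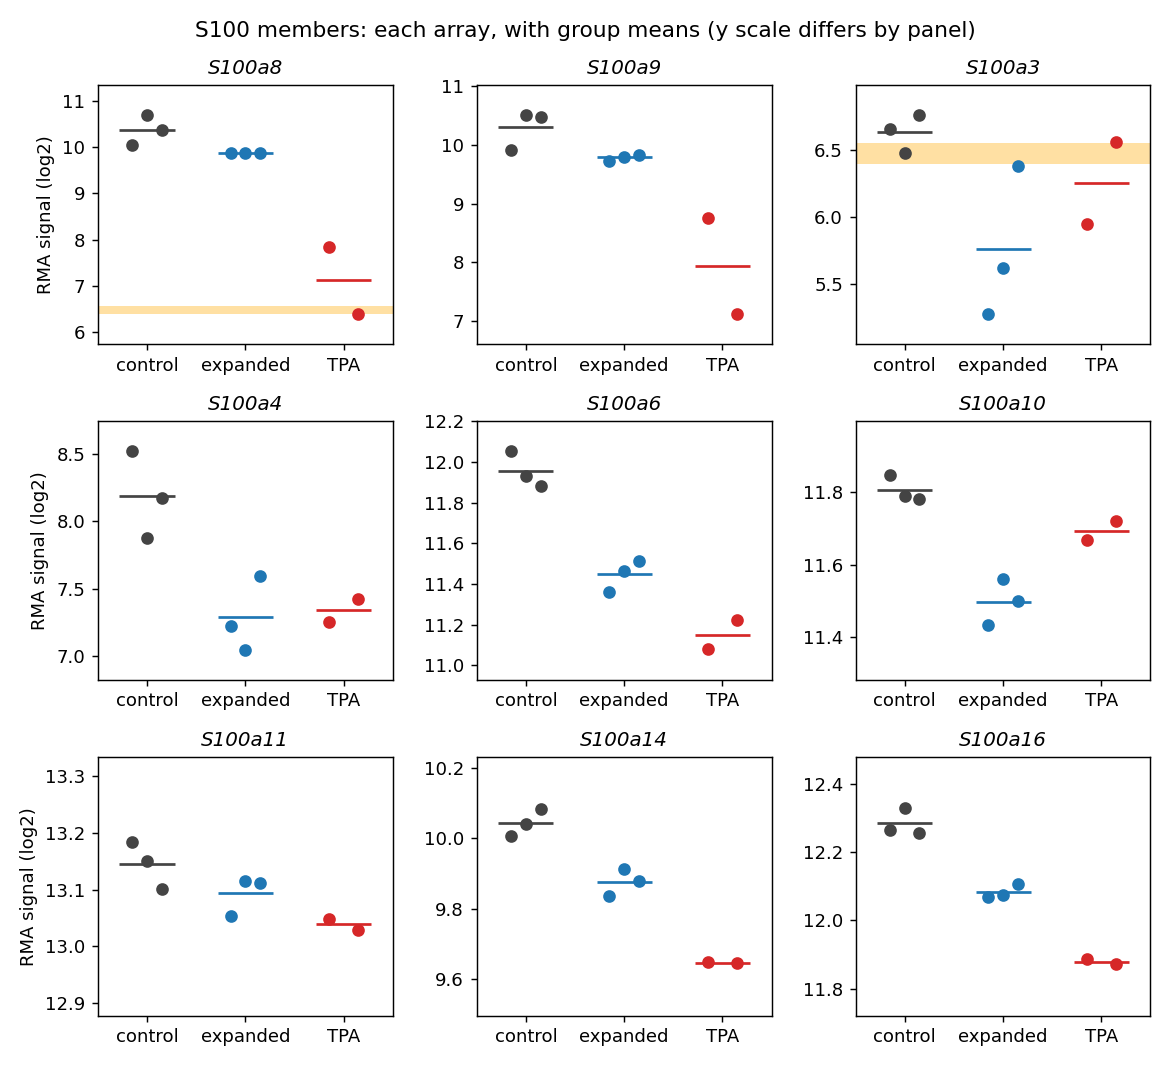
RMA signal (log2, y axis, scale differs by panel) of the 9 S100 genes on each array (points), with group means (lines), for 3 control, 3 expanded and 2 TPA arrays; the orange band is the range of the background limit, 6.40 to 6.56. S100a8 and S100a9 stand apart in the TPA arrays, S100a14 and S100a16 fall from control to expanded to TPA without overlap, and S100a3 lies around the limit.

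S100a8 and S100a9, the calprotectin pair, had the widest differences of the family, and these lay between the TPA arrays and the rest. S100a8 was at 10.05, 10.70 and 10.38 in the control arrays, 9.86, 9.86 and 9.86 in the expanded arrays and 7.85 and 6.39 in the TPA arrays. No group overlapped with another, and TPA replicate 2 lay under the background limit. The 3 expanded arrays differed by only 0.0013, while the TPA arrays differed by 1.46, a wider gap than that of 99.8% of all genes. S100a8 was lower in TPA than in control (-3.25 ± 0.36, adjusted p = 0.000343), a 9.52-fold difference, and higher in expanded than in TPA arrays (2.74 ± 0.36, adjusted p = 0.00405). Expanded and control arrays differed by -0.51 ± 0.32, which missed the threshold (adjusted p = 0.413). The difference of TPA from control became -3.20 when values under the limit were set to it.

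S100a9 followed its partner array by array. It stood at 9.91, 10.51 and 10.47 in control, 9.73, 9.80 and 9.83 in expanded and 8.75 and 7.11 in TPA arrays. The groups again did not overlap, control replicate 1 was the lowest control array for each of the pair, and TPA replicate 2 was the lower TPA array for each. S100a9 was lower in TPA than in control (-2.37 ± 0.40, adjusted p = 0.00326), a 5.15-fold difference, and higher in expanded than in TPA arrays (1.86 ± 0.40, adjusted p = 0.0309). Expanded against control gave -0.51 ± 0.36 (adjusted p = 0.472). The size of the TPA differences rests on which TPA array is used: without TPA replicate 2 they were -2.52 for S100a8 and -1.55 for S100a9, and without TPA replicate 1 they were -3.98 and -3.18. The call of S100a9 between expanded and TPA was lost without control replicate 2 or 3 or any of the expanded arrays (adjusted p up to 0.0843), and with only the 2 groups compared it was 0.0956, whereas S100a8 kept its calls under each of the 19 alternatives run.

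Since neutrophils are rich in S100a8 and S100a9, their markers were read beside these values. Of 10 measured neutrophil markers 6 lay under the background limit on every array, among them Elane, Ngp and Csf3r. Camp (7.36 to 7.62) and Ltf (7.24 to 7.50) were above it on every array. Mpo was above it on 2 control, 2 expanded and 0 TPA arrays, and Itgb2 on 1 control array only. The log2 of the summed signal of the list ranged from 9.60 to 9.79 in control, 9.54 to 9.67 in expanded and 9.53 to 9.58 in TPA arrays. Of its members 0 were higher and 1 lower in TPA than in control, and that 1, Cxcr2 (-0.72, adjusted p = 0.00564), was under the limit in each group. Of 9 suprabasal keratinocyte markers 4 were higher and 0 lower in TPA than in control, and 5 higher and 0 lower in expanded than in control. Ivl went the other way without passing (-0.33 in expanded and -0.48 in TPA arrays, adjusted p = 0.168 and 0.0532). Lor and Flg lay under the limit on every array. The summed signal of this list ranged from 13.05 to 13.66 in control, 14.61 to 14.72 in expanded and 14.58 to 14.68 in TPA arrays. Krt1, Krt10 and Krt2 were its brightest genes in expanded arrays, at means of 13.02, 12.73 and 12.33, so the sum there mostly follows them. The part of suprabasal cells in the S100 results was not tested.

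S100a6, also called calcyclin, had a stepwise order of group means. It was at 12.05, 11.93 and 11.88 in control, 11.36, 11.46 and 11.52 in expanded and 11.08 and 11.22 in TPA arrays, and no group overlapped with another. It was lower than in control both in TPA (-0.80 ± 0.09, adjusted p = 0.00038) and in expanded arrays (-0.51 ± 0.08, adjusted p = 0.00458), while expanded and TPA arrays differed by 0.30 ± 0.09 and did not pass (adjusted p = 0.103). Its partner Cacybp was higher in expanded than in TPA arrays (0.38, adjusted p = 0.0488) and did not pass in either comparison with control.

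S100a4, known as metastasin and as a fibroblast and myeloid transcript, was at 8.52, 7.88 and 8.17 in control, 7.22, 7.05 and 7.59 in expanded and 7.25 and 7.42 in TPA arrays. Each control array lay above all others, and the expanded and TPA arrays overlapped. It was lower in expanded (-0.90 ± 0.18, adjusted p = 0.0143) and in TPA (-0.85 ± 0.20, adjusted p = 0.0182) than in control. The expanded and TPA arrays differed by -0.05 ± 0.20 (adjusted p = 0.934). The call against expanded was lost without control replicate 3 or expanded replicate 1 or 2 (adjusted p up to 0.0505), and that against TPA without control replicate 3 or TPA replicate 1 (adjusted p up to 0.102). Myh9, the heavy chain of the myosin that S100a4 binds, was also lower in expanded (-0.69, adjusted p = 0.00216) and TPA arrays (-1.06, adjusted p = 0.000181) than in control.

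Markers of other cells that can carry S100a4 were read beside it, and few of them passed the test. Lyz2, a myeloid transcript, was at 8.25, 5.36 and 7.12 in the control arrays, which is the order of S100a4 there, and at 5.20 and 5.07 in the TPA arrays, although it did not pass (adjusted p = 0.0926 for TPA against control). Of 11 measured macrophage and monocyte markers 0 were higher and 1, Cd14, was lower in each comparison with control. Cd14 was at 7.28, 6.64 and 6.91 in control, again the order of S100a4, and under the limit on all expanded and TPA arrays. Csf1r and Cd68 were above the limit on every array, and Csf1r had that order in control while Cd68 did not. Of the 11 markers 7 were under the limit on every array, C1qa and Adgre1 among them. Their summed signal ranged from 9.48 to 10.21 in control, 9.43 to 9.50 in expanded and 9.41 to 9.42 in TPA arrays. In the Langerhans and MHC class II list, 1 of 7 (H2-Ab1) was lower in each comparison with control and 0 were higher, Cd207 was under the limit on every array, and the summed signal ranged from 9.83 to 10.79, 9.72 to 9.78 and 9.66 to 9.73. Of 8 fibroblast markers 0 passed between expanded and control (limma, 1 at an unadjusted p under 0.05). In TPA arrays 1 was higher (Dcn, 1.69) and 1 lower (Fbln1, -1.17) than in control. Pdgfra, Lum and Col1a2 were under the limit on every array. The summed signal of the fibroblast list ranged from 11.39 to 11.54 in control, 11.37 to 11.48 in expanded and 10.65 to 10.95 in TPA arrays. Fbln1 was the brightest of the list, at a mean of 11.15 in control, so the sum mostly follows that 1 gene. The list's median difference of TPA from control was -0.02, but it includes Pdgfra, Lum and Col1a2, which under the limit cannot show a fall. Col1a1, above the limit on every array, was at 8.123, 6.865 and 7.099 in control, the order of S100a4 there. It differed from control by -0.60 in expanded and -0.68 in TPA arrays and did not pass (adjusted p = 0.245 and 0.174). Of 6 endothelial markers 0 passed in any comparison (limma, 0 at an unadjusted p under 0.05 in each comparison with control), with a median of -0.78 for TPA and -0.16 for expanded against control. Their summed signal ranged from 9.07 to 10.92 in control, 9.05 to 9.89 in expanded and 8.83 to 8.91 in TPA arrays. Control replicate 1, the array with the highest S100a4, was also the highest for Cdh5 (9.73, beside 7.02 and 6.86 in the other control arrays) and Pecam1 (8.30, beside 6.88 and 6.96). In the expanded arrays, where S100a4 was lower than on any control array, Cdh5 was at 6.57, 8.39 and 8.42. Pecam1 was at 7.39, 7.41 and 7.61 there. Without control replicate 1, S100a4 was still called lower in expanded (-0.74, adjusted p = 0.04) and in TPA arrays (-0.68, adjusted p = 0.0433). That fit keeps control replicate 3, where Lyz2 was at 7.12, so it cannot decide the part of these cell types. Their part in the S100a4 result was not tested.

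S100a3, the hair cuticle member, lay around the background limit. It was at 6.66, 6.48 and 6.77 in control, 5.28, 5.62 and 6.39 in expanded and 5.95 and 6.56 in TPA arrays, above the limit on 3 of 3, 0 of 3 and 1 of 2 arrays. Expanded and control arrays did not overlap, but the difference of -0.88 ± 0.27 did not pass (adjusted p = 0.075). Without expanded replicate 3, the highest of its group, it was -1.19 and passed (adjusted p = 0.00967), and with signals raised to the limit it was -0.16. TPA against control gave -0.38 ± 0.30 (adjusted p = 0.444). Of 10 measured hard keratins listed for hair shaft and cuticle, only Krt36 and Krt84 were higher and 0 were lower in each comparison with control. Of the 10, 5 lay under the limit on every array, Krt31 and Krt35 among them. The summed signal ranged from 9.95 to 10.00 in control, 12.53 to 12.88 in expanded and 12.88 to 12.99 in TPA arrays. Its rise follows Krt36 and Krt84, at means of 11.96 and 10.84 in expanded arrays, and is not shared by the list.

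The annexin partners S100a10 and S100a11 had small differences. S100a10, or p11, was at 11.85, 11.79 and 11.78 in control, 11.43, 11.56 and 11.50 in expanded and 11.67 and 11.72 in TPA arrays, so that the expanded arrays were the lowest and the TPA arrays stood between them and the control arrays without overlap. It was lower in expanded than in control arrays (-0.31 ± 0.07, adjusted p = 0.0193), and did not pass between TPA and control (-0.11 ± 0.07, adjusted p = 0.362) or between expanded and TPA (-0.20 ± 0.07, adjusted p = 0.187). Leaving out any 1 of control replicates 1 and 2 and expanded replicates 1 and 3 ended the call (adjusted p up to 0.0737). Anxa2, the annexin that S100a10 binds, had the same order of means, with 12.25 ± 0.04 in control, 12.00 ± 0.01 in expanded and 12.07 ± 0.02 in TPA arrays (SD, n = 3, 3 and 2), and was lower in expanded than in control (-0.24, adjusted p = 0.0365).

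S100a11 was at 13.18, 13.15 and 13.10 in control, 13.05, 13.12 and 13.11 in expanded and 13.05 and 13.03 in TPA arrays. Control and expanded arrays overlapped, and no comparison passed (-0.05 ± 0.06 for expanded and -0.11 ± 0.07 for TPA against control, adjusted p = 0.726 and 0.358). These signals lie near the highest of any probe set on the arrays, 13.69 to 13.70, where an array's response can flatten. Krt6a, at a mean of 13.23 in control and 12.54 in TPA arrays, differed by -0.69, but a value from another gene's probe set cannot decide what holds for S100a11. Whether flattening narrowed the differences of S100a11 was not tested. Anxa1, a partner of S100a11, was lower in expanded (-0.44, adjusted p = 0.00655) and in TPA arrays (-0.58, adjusted p = 0.00155) than in control.

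S100a14 and S100a16, neighbouring genes of epithelial cells, had nearly the same course. S100a14 was at 10.01, 10.04 and 10.08 in control, 9.84, 9.91 and 9.88 in expanded and 9.65 and 9.65 in TPA arrays. S100a16 was at 12.27, 12.33 and 12.26, at 12.07, 12.07 and 12.11, and at 11.89 and 11.87 in the same groups. Neither gene had overlapping groups in any comparison. In TPA arrays S100a14 was lower than in control by 0.40 on the log2 scale (-0.40 ± 0.07, adjusted p = 0.0042), and S100a16 gave -0.40 ± 0.07 (adjusted p = 0.00361), a 1.32-fold difference for each. Expanded against control, at -0.17 ± 0.06 (adjusted p = 0.141) and -0.20 ± 0.06 (adjusted p = 0.0764), did not pass. The other probe set of S100a16 gave -0.49 ± 0.08 for TPA (adjusted p = 0.00309) and -0.27 ± 0.07 for expanded against control (adjusted p = 0.0474, over all probe sets tested singly). The suffix of the probe set that leads for S100a16 marks probes that may also bind other transcripts, and that of S100a8 marks probes shared by several transcripts.

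**Figure D2:**
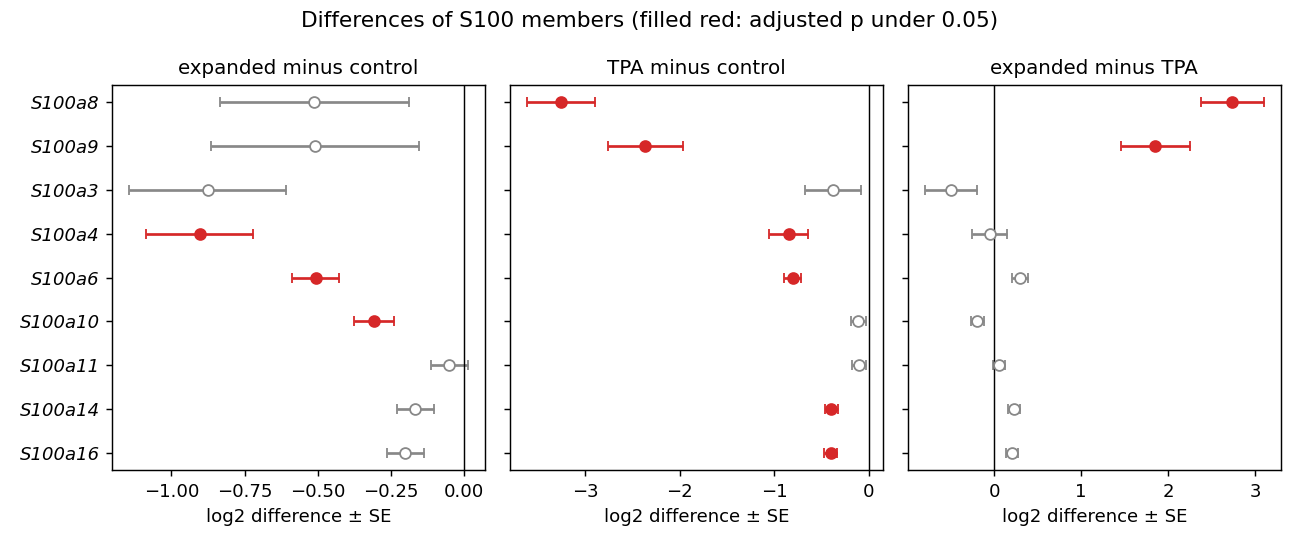
Log2 differences (x axis, points, with SE bars) of the 9 S100 genes in 3 comparisons over 3 control, 3 expanded and 2 TPA arrays; filled red points passed an adjusted p of 0.05 and the x scale differs by panel. All 9 differences from control lie below 0, and S100a8 (-3.25) and S100a9 (-2.37) in TPA arrays lie farthest from it.

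Separation of the groups was frequent among these genes: 8 of 9 had no overlap between expanded and control arrays, all lower, beside 14.5% of all genes that lay wholly lower, and 8 of 9 had none between TPA and control, all lower, beside 25.4% of all genes. The order control, expanded, TPA from the highest to the lowest mean was seen in 6 of 9 (S100a8, S100a9, S100a6, S100a11, S100a14 and S100a16) and in 28.7% of all genes. S100a3, S100a4 and S100a10 had their lowest mean in the expanded arrays, although none of the 3 passed between expanded and TPA (lowest adjusted p = 0.187). S100a4 and S100a6 were the 2 of 9 called lower in each comparison with control, beside 4.86% of all genes.

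The stretch of chromosome 3 from S100a1 to S100a10 held 39 measured genes besides the 9 members. Between TPA and control 1 of the 39 was higher (S100a1) and 8 were lower, all of them small proline-rich genes of the cornified envelope or their pseudogene Sprr2j-ps, with Sprr2d at -4.72 and Sprr2h at -4.27, and the median was -0.16. Between expanded and control 1 was higher (Sprr2a1) and 4 were lower (Sprr2f, Sprr2h, Sprr1b and Sprr1a), with a median of -0.08. Genes of the Sprr2 group are close copies, so their probe sets may share signal. The late envelope genes of the Lce group, Lor, Flg, Hrnr, Rptn, Tchh and Tchhl1, in the same stretch, did not pass in any comparison.

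**Figure D3:**
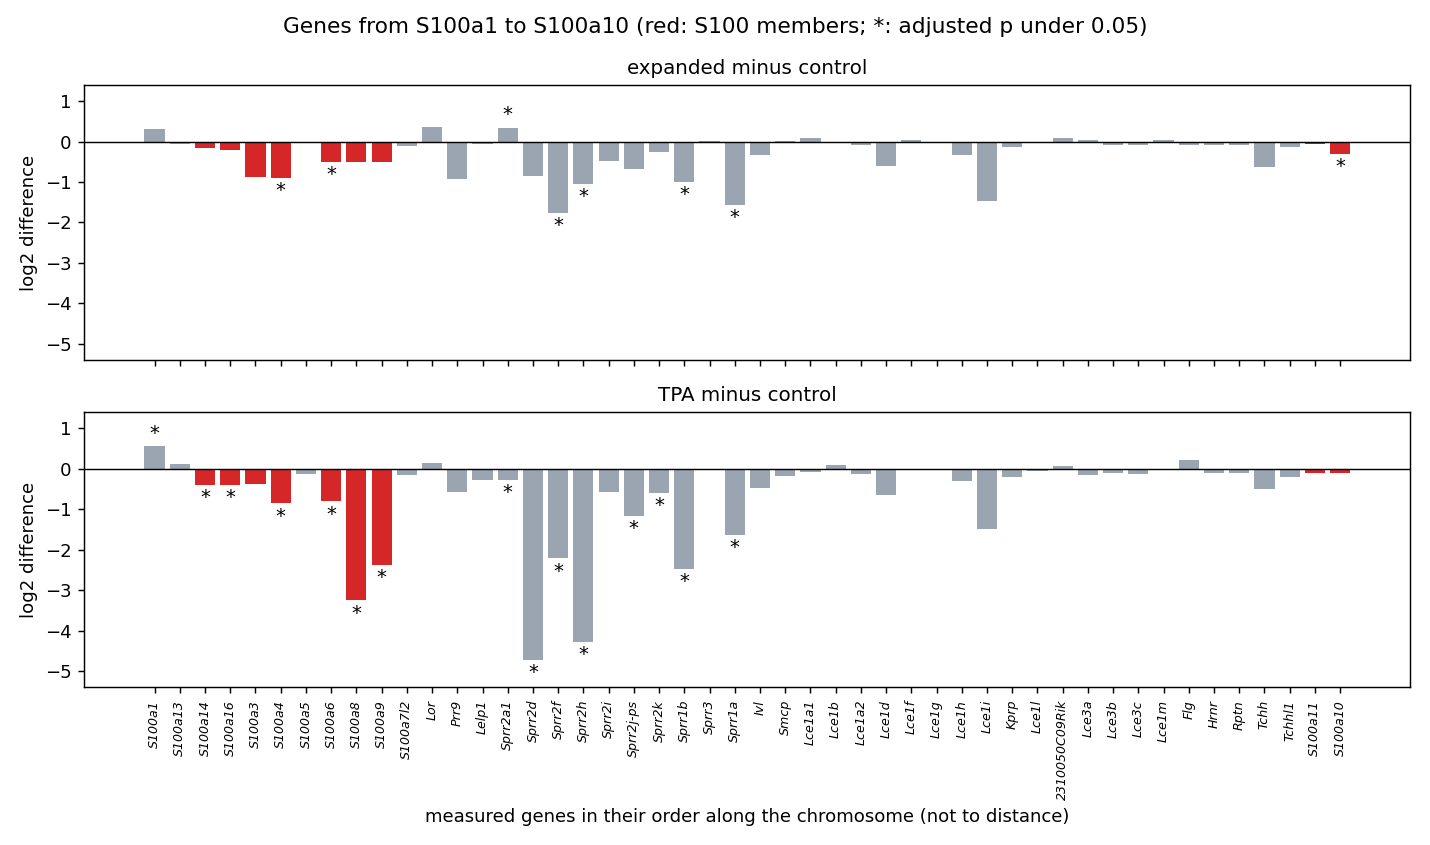
Log2 differences (y axis) from control in expanded (top) and TPA arrays (bottom) for the 48 measured genes from S100a1 to S100a10, in chromosome order and not to distance; red bars are the S100 members and asterisks mark adjusted p under 0.05. In TPA arrays the marked falls lie among the S100 genes up to S100a9 and among the Sprr genes.

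The rest of the S100 family varied in signal. Of 6 other measured family genes 3 (S100a5, S100a7l2 and S100b) lay under the limit on every array, while S100a1 and S100a13 were above it on every array. Between expanded and control 0 of the 6 passed (limma, 0 at an unadjusted p under 0.05). S100a1, a member best known from muscle, was higher in TPA than in control arrays (0.57, adjusted p = 0.0335), at 7.55, 7.53 and 7.29 in control and 8.28 and 7.78 in TPA arrays. S100a13 (0.13, adjusted p = 0.725) and S100g (-0.17, adjusted p = 0.38) did not pass in that comparison. The 5 measured S100-fused genes, whose products carry an S100 domain before a long repeat as filaggrin does, lay under the limit on every array, and 0 of them passed in any comparison (limma, 1 lower at an unadjusted p under 0.05 in each comparison with control, with Tchh, trichohyalin, nearest at -0.62 in expanded arrays, adjusted p = 0.0789).

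Among 8 receptors of S100 proteins Tlr4, Cd36, Cd33 and Mcam were under the limit on every array. Bsg, or basigin, was lower in TPA than in control (-0.32, adjusted p = 0.0156), Alcam was higher (1.03, adjusted p = 0.00315), and Ager, which encodes RAGE (-0.23, adjusted p = 0.44), and Nptn, neuroplastin (-0.12, adjusted p = 0.41), did not pass. Between expanded and control 0 of the 8 passed (limma, 0 higher and 1 lower at an unadjusted p under 0.05). Of 11 intracellular partners 1 was higher and 5 were lower in expanded than in control arrays, and 2 were higher and 3 lower in TPA arrays, with medians of -0.21 and -0.13. S100pbp was the 1 that rose in expanded arrays (adjusted p = 0.0105), where its mean was 7.26. Its control arrays, at 6.34, 6.29 and 6.38, were all under the limit, so the size of that rise is not measured. Anxa5 (-0.40, adjusted p = 0.0115) was among those that fell there. Anxa11 was lower in expanded (-0.67, adjusted p = 0.0162) and TPA arrays (-0.77, adjusted p = 0.00781).

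Antimicrobial and inflammatory genes that keratinocytes often make together with S100a8 and S100a9 went both ways. Of 19 measured, 3 were higher and 4 lower in TPA than in control, 2 higher and 1 lower in expanded than in control, and 4 higher and 1 lower in expanded than in TPA. Slpi, a protease inhibitor, was lower in TPA arrays (-3.09, adjusted p = 0.00142), as were Il1f9, which encodes the cytokine IL-36 gamma (-1.89, adjusted p = 0.000242), and the defensin Defb1 (-1.22). The chemokine gene Ccl20 (1.35, adjusted p = 9.70e-05) and Serpinb3a (1.04, adjusted p = 0.00353) were higher there. Ccl20 was above the limit on only 1 of 3 control arrays (6.54, 6.41 and 6.67), so the size of its rise is not measured. Lcn2, lipocalin 2, was higher in expanded than in TPA arrays (1.14, adjusted p = 0.0287) and did not pass between TPA and control (-0.55, adjusted p = 0.158).

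Among 10 receptors of cytokines that act on these genes, 4 were higher and 1 lower in TPA than in control, and 3 were higher and 0 lower in expanded than in control (limma, 4 higher and 1 lower at an unadjusted p under 0.05). Il20rb rose in expanded (1.13) and TPA arrays (1.62), as did Il6ra (0.56 and 0.99) and Tnfrsf1a (0.59 and 0.49). Il10rb was lower in TPA arrays (-0.46, adjusted p = 0.0225). Other EF-hand genes had medians of -0.23 in expanded and -0.20 in TPA arrays against control, and of 16 measured 2 were higher and 4 lower in expanded, 2 higher and 8 lower in TPA arrays. Calm4, a calmodulin-like gene of skin, was higher in each (1.22 and 1.21), and the calpain subunit Capn2 (-0.67 and -1.15) and Efhd2 (-0.78 and -1.06) and Pdcd6 (-0.30 and -0.51) were lower in each. These lists were not compared with the members by a test.

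**Figure D4:**
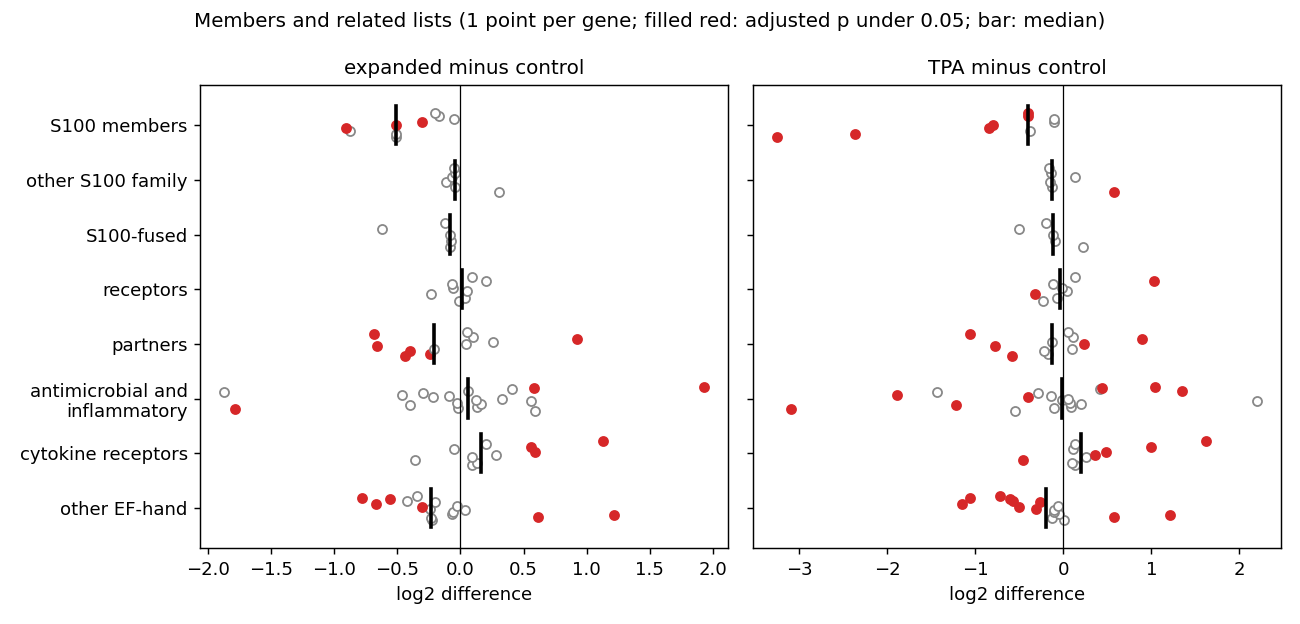
Log2 differences from control (x axis) in expanded (left) and TPA arrays (right) for the S100 members and 7 related lists, with 1 point per measured gene, filled red where the adjusted p was under 0.05, and a bar at the median. The member medians are -0.51 and -0.40, and S100a8 (-3.25) lies at the far left beside Slpi (-3.09) in the TPA panel.

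The genes most like a member were taken as those with the smallest root mean square difference between their deviations from the mean over the 8 arrays. For S100a8 these were Gjb2, which encodes connexin 26 (0.32), Pdpn, podoplanin (0.47), and Cald1, caldesmon (0.47), beside 0.39 for S100a9. Gjb2 fell from 12.62 in control to 12.16 in expanded and 9.47 in TPA arrays. For S100a9 they were Gstp3 (0.33), a glutathione transferase, Glrx (0.36), glutaredoxin, and Sprr1b (0.40), a cornified envelope precursor. On TPA replicate 2, Cald1 and Gstp3 were under the limit, as S100a8 was. The closest genes to S100a4 were Cd14 (0.09), a co-receptor for bacterial lipopolysaccharide, Ppfibp1 (0.15) and Gdnf (0.15). Cd14 and Gdnf lay under the background limit on all expanded and TPA arrays, so their likeness to S100a4 there rests on values that carry no order. Those of S100a6 were Fez2 (0.055), Itga6 (0.059), the integrin used for the sort, and Tmem51 (0.06), and Itga6 was lower by 0.47 in expanded and 0.69 in TPA arrays than in control. Plec, or plectin (0.036), was the closest to S100a10, Morf4l2 (0.029) to S100a14 and Fam162a (0.02) to S100a16. Distances of genes with small differences are small by construction, so they cannot be ranked across members.

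**Figure D5:**
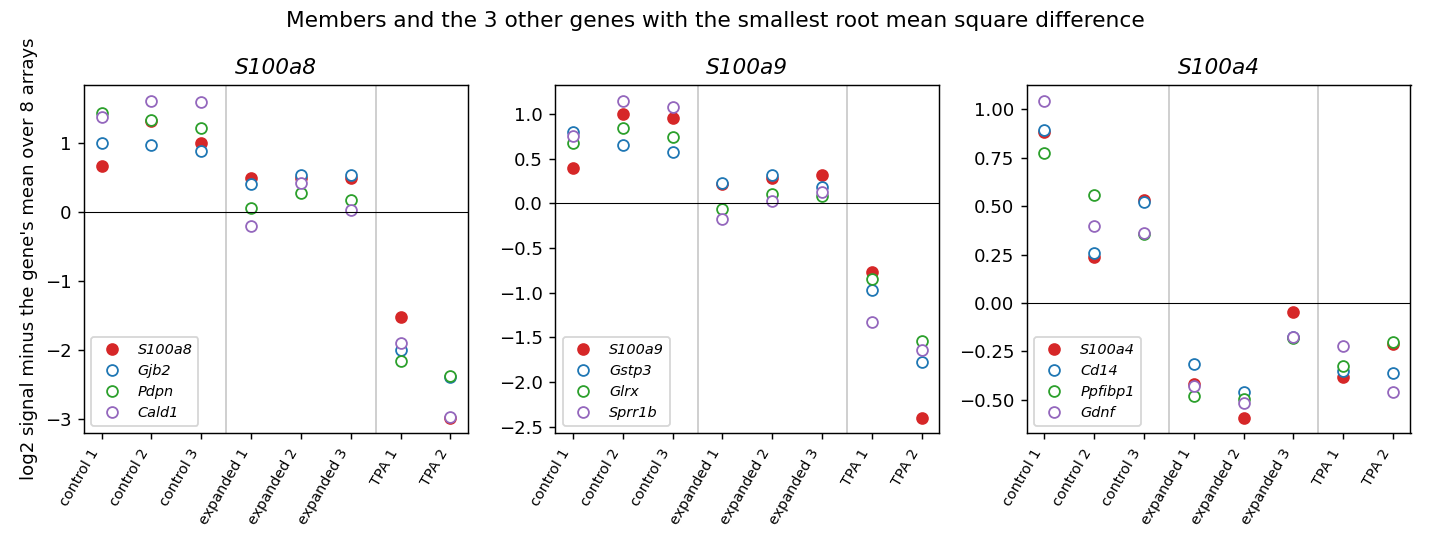
Log2 signal minus the gene's own mean over 8 arrays (y axis) for S100a8, S100a9 and S100a4 (filled red) and the 3 genes closest to each (open circles), by array (x axis); grey lines divide control, expanded and TPA arrays. S100a9 in TPA replicate 2 lies below its 3 closest genes, and Cd14 and S100a4 nearly coincide in the control arrays.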

How the data were processed

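The authors deposited log2 signals made with RMA, per the submitters' processing notes (version not given in the sources used here). Per the labels' protocols, cDNA from the RNA of 300 sorted cells was amplified up to a plateau. Detection calls and raw scans were not used here. Of 45141 probe sets 28898 carried 1 gene symbol, and the one with the highest mean represented each of 17097 genes. Group means were estimated in 1 linear model of the 8 arrays, using limma 3.58.1 under R 4.3.3 (eBayes, Benjamini-Hochberg over all genes, threshold 0.05) and tested on simulated data. With 2 or 3 arrays per group, the number of arrays limits the precision. Every member is reported. From each related list the rule named up to 4 genes with the smallest p. Outside it S100a5, S100a13, Anxa2, Anxa11, Cacybp, Slpi, Lcn2, the Sprr genes, individual markers of cell types and receptors under the limit were named after their values were seen. Members and lists were chosen with earlier results of these data known. List entries were matched by symbol or RefSeq synonym. Same-numbered control and expanded arrays had residual correlations of -0.179, 0.002 and 0.03, which are too few to decide whether the numbers pair the mice. The labels do not say that they do, so the main fit had no replicate block. Alternatives were 2 scalings, a signal filter, other uses of probe sets, 2 variance models, only the 2 groups compared, a fold test, a replicate block, leaving out each array and, added after the data were seen, signals raised to the background limit.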

Additional observations from a re-analysis of the deposited data

How the results depend on the processing

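Over the 27 differences of members and their alternatives, 474 of 513 values kept their direction and their side of the threshold, 27 lost a call, 10 gained one and 2 reversed. The reversals were those of S100a4 between expanded and TPA, which passed under none of the 19 alternatives: it ranged from -0.21 to 0.07 when 1 array was left out, at 0.067 without expanded replicate 2 and 0.031 without TPA replicate 2. Leaving out 1 array gave 1261 to 2076 genes called between expanded and control (1261 without control replicate 2), 2613 to 3344 between TPA and control and 560 to 922 between expanded and TPA, with 1 to 3, 5 to 6 and 1 to 2 members called. The 1 member left between expanded and control came without expanded replicate 1. Between expanded and TPA the genes called were 636, 560 and 568 without expanded replicate 2, expanded replicate 3 and TPA replicate 1. Without a TPA array, the lone one is assumed to vary like the other groups. A test against a fold of 1.5 left 173, 596 and 64 genes in the 3 comparisons, and 0, 2 (S100a8 and S100a9) and 1 members (S100a8), as it asks for larger differences. Between expanded and TPA, the main count of 1022 genes and 2 members became 511 genes and 1 member with only the 2 groups compared, 541 genes and 1 member with the replicate block, and 4 members with a trended robust eBayes, which added S100a6, S100a10 and S100a16 and dropped S100a9. The cause was not tested. With the replicate block S100a3 passed between expanded and control (adjusted p = 0.0419) and S100a10 did not (0.0549). S100a16 passed between expanded and control with the mean of its probe sets, array weights, a trended robust eBayes or raised signals (adjusted p from 0.0019 to 0.0382), S100a11 passed between TPA and control with the trended robust eBayes (0.0296), and S100a4 did not with array weights (0.0506). Signals under the limit, as for S100a3, carry no order.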
